A study of Mus musculus with 12 samples.

Results

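Solute carriers are the membrane transporters whose mouse symbols start with Slc and a family number. GENCODE release M21 annotates 371 protein-coding genes with such symbols, and 370 of them had a transcript in the deposited estimates. Described here are the 195 that reached 1 TPM (an estimate of transcript abundance scaled for length and for library size) in at least 3 of the 12 libraries, which is 52.6% of the annotated genes. They are among 13076 genes of the series that passed the same filter. Of the 195, 165 reached that level in all 12 libraries and 7 were listed at 0 in some library. The members just inside the limit, with exactly 3 such libraries, were Slc2a4, which spanned 0 to 1.7 TPM, and Slc44a4, which spanned 0 to 5.84 TPM. Outside it, 10 genes reached 1 TPM in 1 or 2 libraries, and 92 were listed at 0 in all 12.

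RNA sequencing of poly(A) RNA was carried out in C2C12, a mouse myoblast line that leaves the cell cycle, expresses muscle genes and fuses when serum is lowered. D2 siKctd10 cells received an siRNA against Kctd10, were moved after 24 h to medium with 2% horse serum, and were harvested 48 h after the move. D2 siControl cells received a control siRNA and the same medium and times. D0 siKctd10 and D0 siControl cells received these siRNAs, stayed below confluence in medium with 10% fetal bovine serum and were harvested after 48 h. Each group held 3 libraries. Kctd10 encodes a BTB-domain protein, a substrate adaptor of cullin 3 ubiquitin ligases. The labels do not tie the 3 libraries of a group to separate cultures, and p-values here therefore reflect variation among these libraries alone, some of which may be technical.

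Solute carriers move amino acids, sugars, ions, metabolites and vitamins down their gradients or by coupling to sodium, protons or a counter-substrate. In muscle they set the supply of glucose, lactate, carnitine, creatine and taurine, and the carriers of family 25 link the cytosol to the mitochondrial matrix. Some amino acid carriers are known targets of ATF4, the transcription factor of the amino acid response.

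Kctd10 stood at 26.8 to 35.1 TPM in D2 siKctd10 against 275.9 to 289 TPM in D2 siControl libraries, and at 20 to 24.8 TPM in D0 siKctd10 against 257.9 to 271.7 TPM in D0 siControl libraries, so that 11.3% was left at D2 and 8.66% at D0. The sum over 7 markers of differentiating muscle was 2017.1 to 2383.2 TPM in D2 siKctd10 and 3318.7 to 3541.4 TPM in D2 siControl libraries, and 161.2 to 211.9 TPM in D0 siKctd10 and 98.6 to 132.3 TPM in D0 siControl libraries. The sum over 5 myoblast markers was 1606.9 to 1861.8 TPM in D2 siKctd10 and 1850.8 to 1990.9 TPM in D2 siControl libraries, and 807.4 to 922.7 TPM in D0 siKctd10 and 696.9 to 711.9 TPM in D0 siControl libraries. All 5 adipocyte markers were listed at 0 in every library, and the summed markers of osteoblasts, leukocytes, endothelium and neural cells stayed at or below 2.55 TPM, with Bglap, Ibsp, Ptprc, Adgre1, Kdr, Snap25 and Gfap listed at 0 throughout. The siKctd10 libraries numbered 3 lay farthest from the siControl libraries on the second principal component, at -42.4 on both days, and counts were also taken without them. In bulk samples, fewer cells of a type and less RNA per cell cannot be told apart.

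By family number the members fell into 29 amino acid, 15 glucose and sugar, 48 ion, 38 mitochondrial and 61 other carriers, plus 4 genes that bear an Slc symbol without being transporters. Coverage of the classes was uneven: 38 of 47 annotated mitochondrial carriers were members, but 29 of 67 amino acid carriers. Together the members held 1.14% of all TPM in D2 siKctd10, 1.07% in D2 siControl, 1.18% in D0 siKctd10 and 1.17% in D0 siControl libraries. The 20 most abundant made up 60.4% of that sum. Family 25 led with a mean sum of 3139.8 TPM, followed by the nucleotide-sugar carriers of family 35 with 1046 TPM, from 20 of 27 genes, and the zinc importers of family 39 with 874.3 TPM, from 10 of 14 genes.

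**Figure D1:**
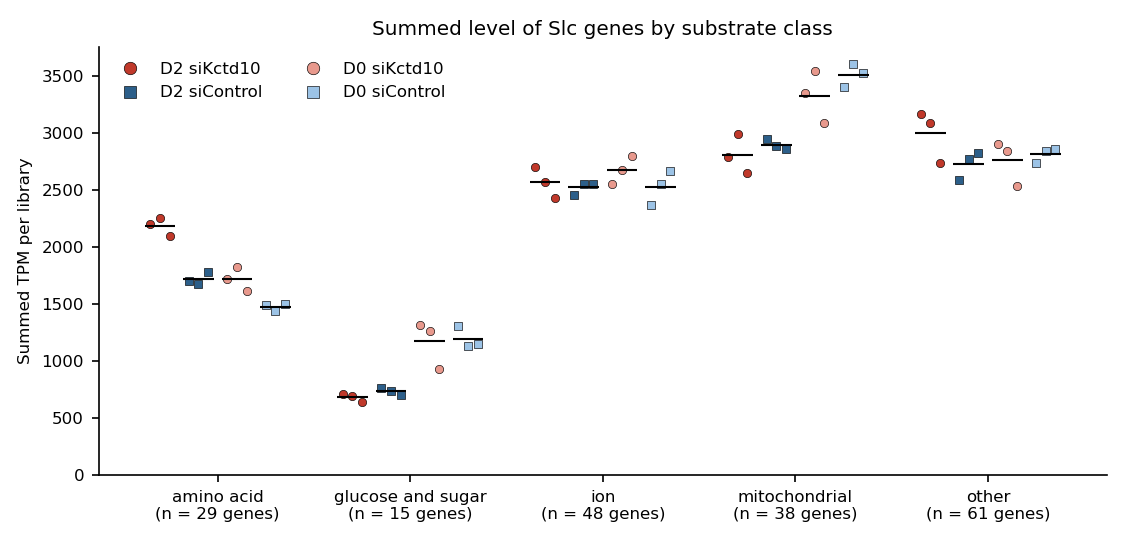
Summed TPM of the members of each class (vertical axis, from 0) in each library, by group; points are libraries and bars are means of 3. The amino acid sums of the D2 siKctd10 libraries, 2100.6 to 2258.6, lie above those of the D2 siControl libraries, 1678.1 to 1780.9.

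Amino acid carriers called between siRNAs were all higher in siKctd10 cells. At D2, 4 of 29 (13.8%) were higher in siKctd10 cells and none lower, beside 2.83% of all genes higher and 1.92% lower. At D0, 2 (6.9%) were higher and none lower, beside 1.48% and 0.964% of all genes. Of the calls over all genes on the TPM scale, 59.6% at D2 and 60.6% at D0 were higher. The median log2 fold change of the class was 0.24 at D2 and 0.05 at D0, beside 0.08 and 0.05 for all genes. The D2 calls include Slc6a2, which passed the filter on low values through its D2 siKctd10 libraries. Across the settings tried, the D2 median lay between 0.16 and 0.32. The class summed to 2201.6, 2258.6 and 2100.6 TPM in D2 siKctd10 libraries, against 1699.5, 1678.1 and 1780.9 TPM in D2 siControl libraries. At D0 it summed to 1719.0, 1822.3 and 1619.2 TPM in siKctd10 libraries, against 1490.4, 1436.2 and 1504.5 TPM in siControl libraries. The sums did not overlap on either day. Slc38a2 and Slc6a6 held 68.7% of the class in D2 siKctd10, 68% in D2 siControl, 61.8% in D0 siKctd10 and 60.8% in D0 siControl libraries.

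Over all members, limma (a linear model fitted to log2(TPM + 1) of all genes, with Benjamini-Hochberg adjustment) called 15 of 195 at D2 with an adjusted p of at most 0.05. Of these, 10 were higher and 5 lower in siKctd10 cells, or 7.69% of the members beside 4.75% of all genes (2.83% higher and 1.92% lower). At D0, 6 members were called, 4 higher and 2 lower, or 3.08% beside 2.45% of all genes (1.48% higher and 0.964% lower). The siRNA groups did not overlap for 69 members at D2, where 28.4% of all genes did not overlap, and for 46 members at D0, where the share of all genes was 23.2%. The balance of directions over all genes turned with scaling. At D2 it was 370 higher and 251 lower on the TPM scale, 265 and 407 after median-ratio scaling, and 296 and 339 after quantile normalization, while that of the members was 10 and 5, 9 and 6, and 8 and 5. At D0 it was 194 higher and 126 lower for all genes on the TPM scale and 188 and 207 after median-ratio scaling, and 4 and 2, and 4 and 3, for the members. Slc9a2 and Slc9a3r1 were called on both days. With only the 6 libraries of a day in the fit, 5 members were called at D2, 4 of them among the 15, and 1 at D0 that was not among the 6. Without the siKctd10 libraries numbered 3, all 10 members called at D2 were among the 15, and 4 of the 5 called at D0 were among the 6. The D0 count fell to 1 without D0 siControl replicate 1, 2 or 3 and to 2 without D0 siKctd10 replicate 2, and the D2 count fell to 8 without D2 siControl replicate 1 and to 9 without D2 siKctd10 replicate 1.

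**Figure D2:**
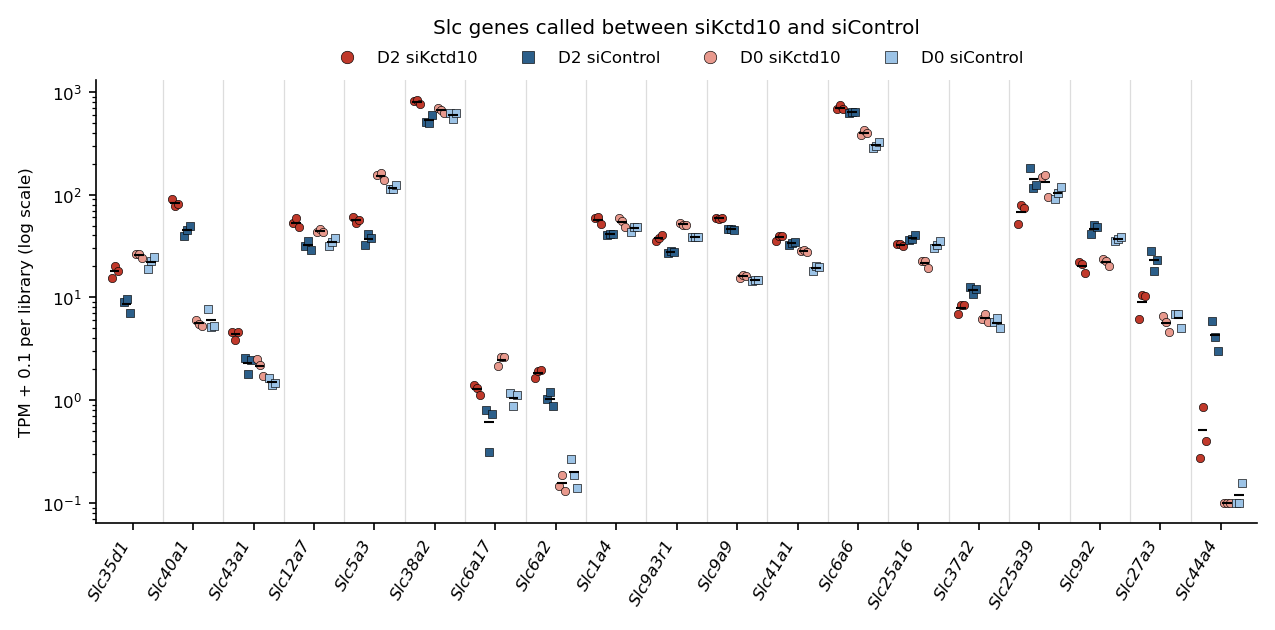
TPM + 0.1 in each library (log axis) for the 19 members called between siKctd10 and siControl on either day; points are libraries and bars their means. Slc44a4 and Slc9a2 are lower in the D2 siKctd10 than in the D2 siControl libraries, with log2 fold changes of -1.88 and -1.18, and Slc35d1 is higher, with 1.

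Slc38a2, the sodium-coupled carrier SNAT2 of small neutral amino acids (system A), was the most abundant member that rose at D2. It had 817.4, 823.9 and 756.3 TPM in D2 siKctd10 libraries, against 511.1, 499.2 and 599.0 TPM in D2 siControl libraries. Every D2 siKctd10 library was above every D2 siControl library. The log2 fold change was 0.58 ± 0.09 (SE; 95% interval 0.37 to 0.78; limma adjusted p = 0.0075), and the gene was called under 22 of 22 alternative settings. At D0 it had 661.1 ± 42.9 TPM in D0 siKctd10 and 595.3 ± 47.6 TPM in D0 siControl libraries (SD, n = 3 each), a log2 difference of 0.15 that was not called (limma adjusted p = 0.46).

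The other members of the class that rose at D2 were of lower abundance. Slc1a4, the neutral amino acid exchanger ASCT1, had 58.7, 61 and 51.2 TPM in D2 siKctd10 libraries, against 40.6, 41.7 and 41.2 TPM in D2 siControl libraries (log2 0.45; limma adjusted p = 0.034; called under 10 of 22 alternatives). Slc43a1, the sodium-independent carrier LAT3 of large neutral amino acids, had 4.53, 3.78 and 4.5 TPM in D2 siKctd10 libraries, against 2.49, 1.71 and 2.35 TPM in D2 siControl libraries (log2 0.73; limma adjusted p = 0.019; called under 16 of 21 alternatives). In both genes the D2 groups did not overlap. Slc6a2, the noradrenaline transporter, which carries a monoamine and stands in this class by its family number, was low, with 1.55, 1.8 and 1.86 TPM in D2 siKctd10 libraries, against 0.933, 1.1 and 0.768 TPM in D2 siControl libraries (log2 0.5; called under 11 of 21 alternatives). Its D0 means were 0.0547 TPM in siKctd10 and 0.0979 TPM in siControl libraries. Slc6a2 thus passed the filter on low values through its D2 siKctd10 libraries. Its D2 difference, though among the calls counted, is given as a description.

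**Figure D3:**
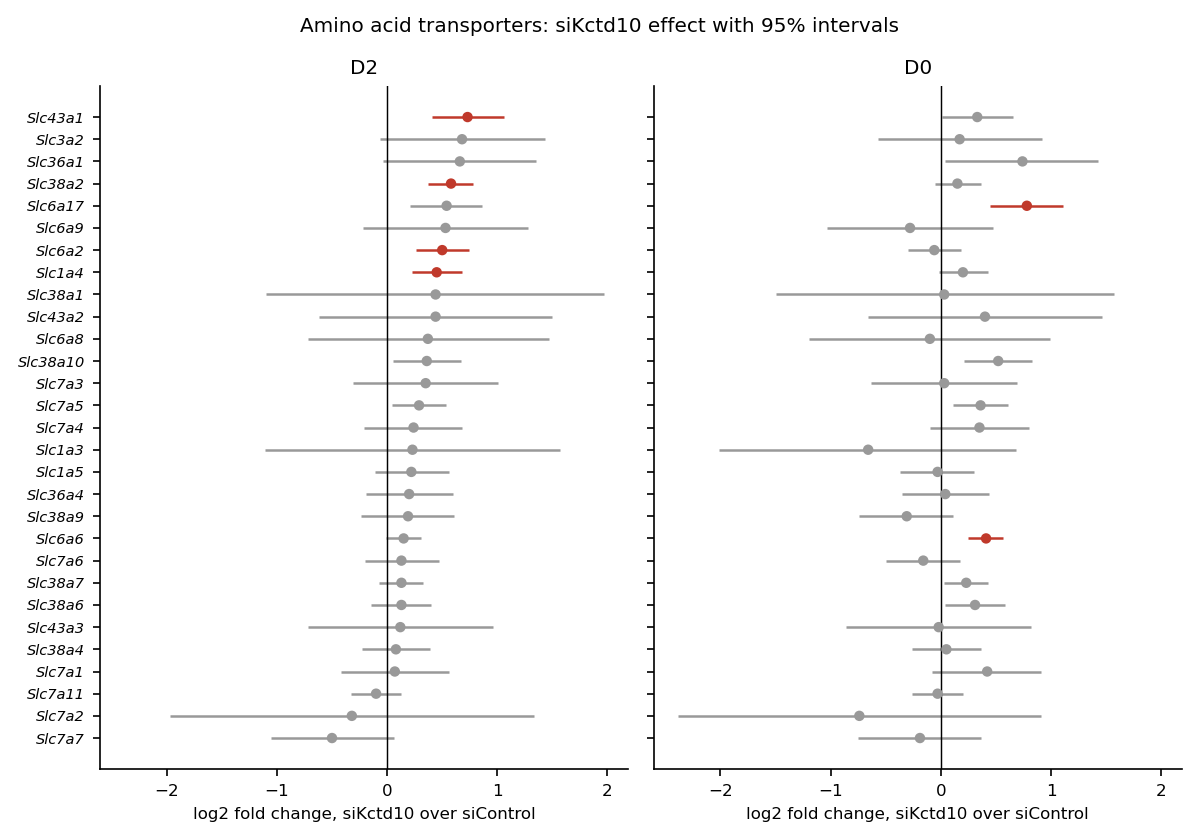
Log2 fold change of siKctd10 over siControl for the 29 amino acid carriers at D2 (left) and D0 (right), with 95% intervals from limma; red marks adjusted p of at most 0.05. The 4 genes in red at D2 and the 2 at D0 all lie above 0.

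Slc7a11, Slc7a5, Slc3a2, Slc1a5 and Slc6a8 did not pass the test between siRNAs on either day. Slc7a11, the cystine-glutamate exchanger, had 14.8 ± 0.973 TPM in D2 siKctd10 and 15.8 ± 0.681 TPM in D2 siControl libraries (SD, n = 3 each), and the 95% interval of its log2 difference ran from -0.33 to 0.13. Slc7a5, the light chain LAT1 that carries leucine, had 99.7, 105.1 and 130.9 TPM in D2 siKctd10 libraries, against 90.3, 90.6 and 92.1 TPM in D2 siControl libraries. Its siKctd10 libraries were all the higher ones, with a log2 difference of 0.29 and an interval of 0.04 to 0.53 (limma adjusted p = 0.2). Its partner, the heavy chain Slc3a2, spanned 57.7 to 82.4 TPM in D2 siKctd10 and 26.8 to 77.5 TPM in D2 siControl libraries. Slc1a5, the glutamine exchanger ASCT2, had 18.7 ± 3.23 TPM in D2 siKctd10 and 15.7 ± 0.664 TPM in D2 siControl libraries (SD, n = 3 each), a log2 difference of 0.22.

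Slc6a8, the creatine transporter, had 88.6, 94.5 and 18.7 TPM in D0 siKctd10 libraries, against 60.4, 52.9 and 61.9 TPM in D0 siControl libraries. Replicate 3 of D0 siKctd10 stood far below the others. The D0 log2 difference was -0.1 with all libraries and 0.64 without that replicate (limma adjusted p = 0.027). Slc38a1, the system A carrier SNAT1, spanned 8.91 to 39.6 TPM in D2 siKctd10 and 5.95 to 31.6 TPM in D2 siControl libraries and was called in no comparison.

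At D0 the amino acid carriers that rose were Slc6a6 and Slc6a17. Slc6a6, the taurine transporter, had 381.0, 428.1 and 395.7 TPM in D0 siKctd10 libraries, against 284.5, 299.1 and 325.7 TPM in D0 siControl libraries, with no overlap (log2 0.41 ± 0.07 SE; limma adjusted p = 0.02; called under 18 of 22 alternatives). Slc6a17, a vesicular carrier of neutral amino acids known from neurons, had 2.06, 2.5 and 2.52 TPM in D0 siKctd10 libraries, against 1.07, 0.785 and 1.01 TPM in D0 siControl libraries, again with no overlap (log2 0.78; limma adjusted p = 0.024; called under 13 of 21 alternatives).

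Of 41 listed regulators and linked enzymes of these carriers, 38 were measured, and at D2 2 rose and 3 fell in siKctd10 cells. Thus 13.2% were called at D2, beside 4.75% of all genes, and 7.89% at D0, beside 2.45%. The list was chosen with earlier results of these data known, so these shares are given as a description. Atf4 had 790.0 ± 44.6 TPM in D2 siKctd10 and 535.1 ± 9.26 TPM in D2 siControl libraries (SD, n = 3 each), a log2 fold change of 0.56 (limma adjusted p = 0.0013). Sesn2, a leucine sensor that ATF4 induces, had 12.6 ± 1.76 TPM in D2 siKctd10 and 3.18 ± 1.34 TPM in D2 siControl libraries (SD, n = 3 each), a log2 fold change of 1.74 (limma adjusted p = 0.0034). Asns, which makes asparagine, had 123.8 ± 24.4 TPM in D2 siKctd10 and 54.4 ± 13.3 TPM in D2 siControl libraries (SD, n = 3 each) and was not called (limma adjusted p = 0.12). The listed genes Ddit3, Shmt2, Psat1, Cebpb, Trib3 and Phgdh were not called at D2 either. Their log2 differences were 1.67, 0.69, 0.49, 0.46, 0.42 and -0.11. The genes that fell at D2 were Txnip, an inhibitor of glucose uptake, with a log2 fold change of -0.61, Ckb, brain-type creatine kinase, with -1.03, and Gatm, which makes the creatine precursor, with -0.44. At D0 Txnip and Ckb fell as well, with log2 fold changes of -0.85 and -0.99, and the hexokinase Hk2 rose, with 0.54.

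The promoters of the members were searched for TGATGCAA (TTGCATCA on the other strand), the core of the composite C/EBP-ATF site that ATF4 binds. RefSeq promoters of build GRCm38.p6, from 250 bases before to 50 after a start, were at hand for 147 of the 195 members. The core was in 4 of the 147 (2.72%) and in 279 of all 27025 genes with such a promoter (1.03%). The second set, unlike the members, was not limited to genes that passed the filter on low values. The windows are shown so that the core can be read in its place in each of the 4 genes. Capitals mark the core, and all windows lie on the minus strand and read 5′ to 3′.
Slc1a4, chr11:20332699-20332728: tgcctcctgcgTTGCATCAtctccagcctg
Slc7a11, chr3:50443661-50443690: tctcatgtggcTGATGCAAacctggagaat
Slc7a11, chr3:50443642-50443671: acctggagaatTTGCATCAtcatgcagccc
Slc50a1, chr3:89270741-89270770: agtggtctcgaTGATGCAAggggtgcgcag
Slc7a7, chr14:54417927-54417956: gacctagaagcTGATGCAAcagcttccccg
The Slc7a11 windows overlap and hold the core once on each strand. At D2, siKctd10 over siControl, Slc1a4 rose (log2 0.45), while Slc50a1, the sugar carrier SWEET1 (0.22), Slc7a11 (-0.1) and Slc7a7, a light chain for cationic amino acids (-0.5), were not called. A match describes letters only, since binding was not measured.

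Ion carriers went both ways between siRNAs. At D2 3 of 48 rose and 1 fell in siKctd10 cells, at D0 1 rose and 1 fell, and the class median was 0.12 at D2 and 0.1 at D0. The share called was 8.33% at D2 and 4.17% at D0, beside 4.75% and 2.45% of all genes. Slc9a2, the sodium-proton exchanger NHE2, fell on both days. It had 22.1, 20.9 and 17.1 TPM in D2 siKctd10 libraries, against 41.4, 50.1 and 47.9 TPM in D2 siControl libraries. At D0 it had 23.7, 22.7 and 20 TPM in D0 siKctd10 libraries, against 35, 37.1 and 38.6 TPM in D0 siControl libraries. No siKctd10 library reached the lowest siControl library of its day. The log2 fold changes were -1.18 ± 0.12 at D2 (SE; limma adjusted p = 0.0011; called under 22 of 22 alternatives) and -0.72 ± 0.12 at D0 (SE; limma adjusted p = 0.02; called under 16 of 22). The log2 difference between days, -0.46, was not called (limma adjusted p = 0.38).

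Slc40a1, ferroportin, the iron exporter, had 91.4, 77.8 and 81.4 TPM in D2 siKctd10 libraries, against 39.6, 45.4 and 49.1 TPM in D2 siControl libraries. At D0 the groups overlapped, at 5.2 to 5.86 TPM in siKctd10 and 5.08 to 7.68 TPM in siControl libraries. The D2 log2 fold change was 0.89 ± 0.15 (SE; limma adjusted p = 0.011; called under 22 of 22 alternatives), and its interaction with day, 0.97, did not pass the test (limma adjusted p = 0.093). Slc12a7, the potassium-chloride cotransporter KCC4, had 53.2, 58.5 and 48.5 TPM in D2 siKctd10 libraries, against 31.5, 35.4 and 29.1 TPM in D2 siControl libraries (log2 0.72; limma adjusted p = 0.0061; called under 21 of 22 alternatives). Slc9a9, the endosomal sodium-proton exchanger NHE9, had 59.7, 58.1 and 58.7 TPM in D2 siKctd10 libraries, against 45.9, 46.6 and 45.3 TPM in D2 siControl libraries (log2 0.35; limma adjusted p = 0.029; called under 11 of 22). In both genes every D2 siKctd10 library was the higher. Slc41a1, a magnesium carrier, rose at D0, with 28, 28.7 and 27.5 TPM in D0 siKctd10 libraries, against 18, 20.3 and 19.7 TPM in D0 siControl libraries (log2 0.52; limma adjusted p = 0.02; called under 17 of 22).

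Slc9a3r1 bears an Slc symbol but encodes NHERF1, a scaffold that tethers transporters to the cytoskeleton. It had 35, 37.3 and 40.7 TPM in D2 siKctd10 libraries, against 26.9, 27.9 and 27.7 TPM in D2 siControl libraries. At D0 it had 52.3, 50.7 and 51 TPM in D0 siKctd10 libraries, against 38.3, 38.6 and 38.7 TPM in D0 siControl libraries. It rose on both days with no overlap, by 0.44 at D2 and 0.4 at D0 on the log2 scale (limma adjusted p = 0.014 and 0.03; called under 20 of 22 and 10 of 22 alternatives). Slc4a1ap and Slc7a6os, which also only bear the symbol, were called in no comparison.

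Glucose and sugar carriers went both ways between siRNAs. At D2 1 of 15 rose and 1 fell in siKctd10 cells, at D0 limma called 0 of 15 (4 at an unadjusted p under 0.05, 0 with voom), and the D2 median was -0.18, or 0.05 when only transcripts matched by identical introns were summed. The D2 calls were 13.3% of the class, beside 4.75% of all genes, and 2.45% of all genes were called at D0. Slc2a1, the glucose transporter GLUT1, had 481.5, 486.2 and 420.3 TPM in D2 siKctd10 libraries, against 572.2, 539.8 and 480.2 TPM in D2 siControl libraries. These groups overlapped, and the log2 difference of -0.2 had an interval of -0.55 to 0.16. Slc5a3, the sodium-coupled carrier of the osmolyte myo-inositol, had 60.9, 52.8 and 56 TPM in D2 siKctd10 libraries, against 32.2, 41.4 and 37.8 TPM in D2 siControl libraries (log2 0.6; limma adjusted p = 0.013; called under 20 of 22 alternatives). Slc37a2, a sugar phosphate exchanger, had 6.85, 8.33 and 8.3 TPM in D2 siKctd10 libraries, against 12.5, 10.8 and 11.9 TPM in D2 siControl libraries (log2 -0.53; limma adjusted p = 0.047; called under 4 of 22). Slc5a3 was the higher and Slc37a2 the lower in every D2 siKctd10 library.

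Mitochondrial carriers gave 1 call on each day, both lower in siKctd10 cells. Each was 2.63% of the class, beside 4.75% of all genes at D2 and 2.45% at D0. Slc25a39, the mitochondrial glutathione carrier, had 51.4, 79.8 and 73.8 TPM in D2 siKctd10 libraries, against 182.4, 115.7 and 123.2 TPM in D2 siControl libraries (log2 -1.02; limma adjusted p = 0.047; called under 6 of 22 alternatives). Slc25a16, a carrier linked to mitochondrial coenzyme A, had 22.3, 22.3 and 19.3 TPM in D0 siKctd10 libraries, against 29.8, 32 and 35.3 TPM in D0 siControl libraries (log2 -0.58; limma adjusted p = 0.02; called under 18 of 22). Neither pair of groups overlapped. The class median was 0.06 at D2, or -0.03 after median-ratio scaling, and -0.05 at D0.

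Among the 61 other carriers, 1 rose and 2 fell at D2 in siKctd10 cells, and limma called 0 at D0 (9 at an unadjusted p under 0.05, 0 with voom). The D2 calls were 4.92% of these carriers, beside 4.75% of all genes, and 2.45% of all genes were called at D0. Slc35d1, which brings UDP-sugars into the endoplasmic reticulum, had 15.5, 19.9 and 18.1 TPM in D2 siKctd10 libraries, against 8.9, 9.49 and 6.92 TPM in D2 siControl libraries (log2 1; limma adjusted p = 0.0059; called under 21 of 22 alternatives). Slc27a3, of the fatty acid transport family, had 6.01, 10.5 and 10.2 TPM in D2 siKctd10 libraries, against 28.3, 18 and 23.2 TPM in D2 siControl libraries (log2 -1.3; limma adjusted p = 0.015; called under 20 of 22). Slc44a4, a choline-like transporter, had 0.172, 0.75 and 0.302 TPM in D2 siKctd10 libraries, against 5.84, 3.97 and 2.92 TPM in D2 siControl libraries. Slc44a4 passed the filter on low values only through its D2 siControl libraries, so its D2 difference (log2 -1.88), though among the calls counted, is given as a description. None of these 3 genes overlapped between the D2 groups. The summed markers of differentiating muscle were lower in D2 siKctd10 than in D2 siControl libraries and higher in D0 siKctd10 than in D0 siControl libraries, as given above, and their part in the siRNA differences was not tested.

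More members were called between days than between siRNAs. D2 and D0 cells differed in medium, serum and time since the siRNA, and D0 cells stayed below confluence. The parts of these and of differentiation in the day differences cannot be told apart. In siKctd10 cells limma called 79 of 195 between D2 and D0, 46 higher and 33 lower on D2, or 40.5% beside 36.4% of all genes (23.1% higher and 13.3% lower). In siControl cells it called 76, 37 higher and 39 lower, or 39% beside 35.5% of all genes (21.4% higher and 14% lower). The day groups did not overlap for 105 members in siKctd10 cells and 113 in siControl cells, where the shares of all genes were 48.4% and 52.3%. Of the members, 57 were called in both arms, 22 in siKctd10 and 19 in siControl alone, and 94 in none of the siRNA or day comparisons. On D2 only, 5 members reached 1 TPM, and 3 did so on D0 only. These members passed the filter through 1 of the days compared, and any day calls of theirs are counted. The difference between arms was tested by the interaction of day and siRNA, which called 1 member, Slc44a4 (log2 -1.85; limma adjusted p = 0.022), beside 0.742% of all genes (0.375% higher and 0.367% lower). That gene was admitted only through its D2 siControl libraries, on which the test rests, so the call is given as a description. It held under 7 of 20 alternatives, with adjusted p up to 0.35 in limma with voom.

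Scaling set the balance of directions over days. The median log2 difference of all genes between days in siKctd10 cells was 0.118 on the TPM scale, 0.004 after median-ratio scaling and -0.021 after quantile normalization. The split of called members in siKctd10 cells became 37 higher and 47 lower with median-ratio scaling, and 33 higher and 44 lower with quantile normalization. In siControl cells it became 35 higher and 43 lower, and 27 higher and 45 lower.

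**Figure D4:**
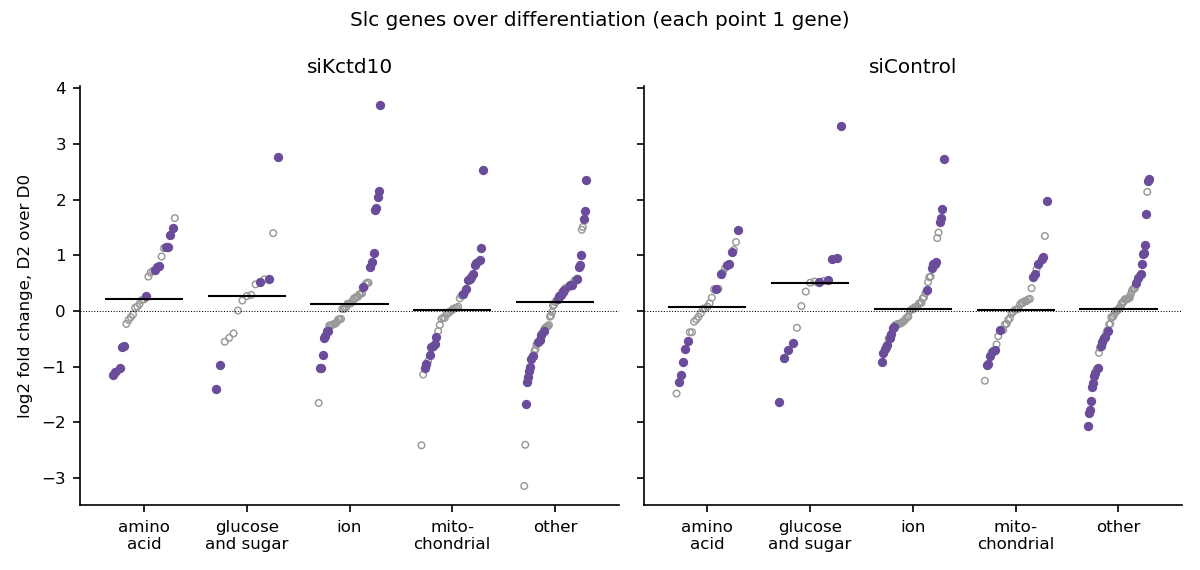
Log2 fold change of D2 over D0 for each member by class, in siKctd10 cells (left) and siControl cells (right). Filled points have limma adjusted p of at most 0.05 and lines are class medians; called genes lie on both sides of 0 in the 5 transporter classes.

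Among glucose and sugar carriers, 3 of 15 rose and 2 fell on D2 in siKctd10 cells, and 5 rose and 4 fell in siControl cells. Calls thus made up 33.3% and 60% of the class, beside 36.4% and 35.5% of all genes. Slc2a1 had 481.5, 486.2 and 420.3 TPM in D2 siKctd10 libraries, against 1064.4, 1000.5 and 677.5 TPM in D0 siKctd10 libraries. siControl cells had 572.2, 539.8 and 480.2 TPM in D2 siControl libraries, against 1055.8, 894.4 and 895.8 TPM in D0 siControl libraries. It fell on D2 in both arms with no overlap, with log2 fold changes of -0.96 ± 0.16 in siKctd10 and -0.84 ± 0.16 in siControl cells (SE; limma adjusted p = 0.0011 and 0.0024). It held 67.9% of the class sum in D2 siKctd10 and 77.8% in D0 siKctd10 libraries, and 71.9% in D2 siControl and 79.3% in D0 siControl libraries. Slc5a3 fell too, with 56.5 ± 4.07 TPM in D2 siKctd10 and 151.1 ± 12.3 TPM in D0 siKctd10 libraries, and 37.1 ± 4.66 TPM in D2 siControl and 116.5 ± 6.16 TPM in D0 siControl libraries (SD, n = 3 each). Its log2 fold changes were -1.4 in siKctd10 and -1.63 in siControl cells. Slc2a3, the transporter GLUT3, was low, at 1.19 to 3.43 TPM over all libraries, and rose by 0.53 log2 units in siKctd10 and 0.56 in siControl cells. After quantile normalization these values were 0.21 (limma adjusted p = 0.19) and 0.28 (limma adjusted p = 0.092).

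Slc2a6, the transporter GLUT6, had 8.28, 11.1 and 5.58 TPM in D2 siKctd10 libraries, against 0.555, 0.516 and 0 TPM in D0 siKctd10 libraries. siControl cells had 15.8, 11.6 and 9.47 TPM in D2 siControl libraries, against 0.111, 0.182 and 0.685 TPM in D0 siControl libraries. Slc2a6 passed the filter on low values only through its D2 libraries. All D2 libraries were above all D0 libraries, with log2 fold changes of 2.76 in siKctd10 and 3.32 in siControl cells. Since the D2 libraries admitted the gene, these differences, though among the calls counted, are given as a description. When only transcripts matched by identical introns were summed, the log2 fold changes were 2.07 (limma adjusted p = 0.21) and 1.1 (limma adjusted p = 0.52). Slc2a4, the insulin-responsive transporter GLUT4, was low throughout and passed the filter on low values only through its D2 siControl libraries, with 0.712, 0.138 and 0.665 TPM in D2 siKctd10 libraries, against 1.27, 1.7 and 1.3 TPM in D2 siControl libraries. In D0 siKctd10 libraries it had 0.391, 0.625 and 0.392 TPM, against 0, 0.7 and 0.194 TPM in D0 siControl libraries. Every D2 siControl library was above all others, and since these libraries admitted the gene, no test is given. Its call over days in siControl cells is still among those counted above.

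**Figure D5:**
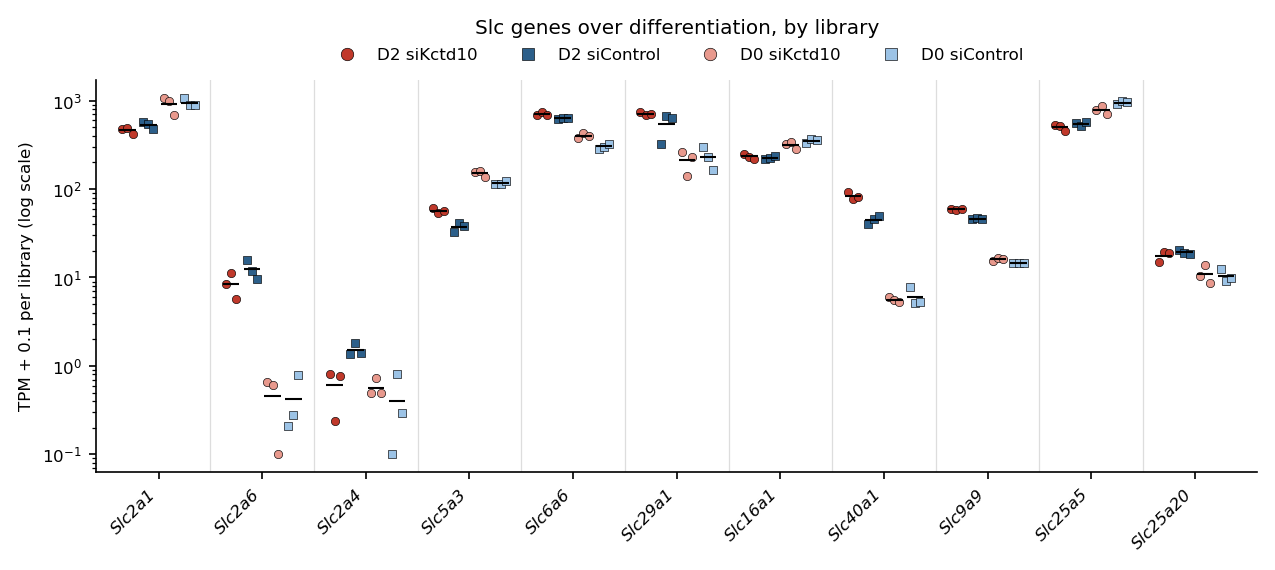
TPM + 0.1 in each library (log axis) for 11 members of several classes, with points for libraries and bars for means. Slc2a1 is lower, and Slc40a1 and Slc9a9 are higher, in the D2 than in the D0 libraries of both siRNAs.

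Amino acid carriers changed in both directions over days, with 8 of 29 higher and 5 lower in siKctd10 cells and 6 higher and 5 lower in siControl cells. These were 44.8% and 37.9% of the class, beside 36.4% and 35.5% of all genes. The class median was 0.21 in siKctd10 and 0.08 in siControl cells, the second -0.07 after quantile normalization. Slc6a6 had 685.6, 743.7 and 680.6 TPM in D2 siKctd10 libraries, against 381.0, 428.1 and 395.7 TPM in D0 siKctd10 libraries. siControl cells had 620.6, 636.6 and 641.6 TPM in D2 siControl libraries, against 284.5, 299.1 and 325.7 TPM in D0 siControl libraries. Every D2 library was higher, and the log2 fold changes were 0.81 ± 0.07 in siKctd10 and 1.06 ± 0.07 in siControl cells (SE; limma adjusted p = 1.5e-05 and 2.2e-06). Slc6a9, the glycine transporter, rose by 1.5 log2 units in siKctd10 cells, and its 0.69 in siControl cells was not called. Its log2 difference between arms, 0.32 to 1.09 over the alternatives, was called under 0 of 21. Slc1a5 fell by 0.65 log2 units in siKctd10 and 0.91 in siControl cells, and Slc7a1, the cationic amino acid transporter CAT1, fell by 1.02 in siKctd10 and 0.68 in siControl cells (called under 15 of 22 alternatives in siControl cells; limma adjusted p = 0.052 with a replicate block). Slc43a3, a purine nucleobase carrier placed here by its family number, fell by 1.14 log2 units in siKctd10 cells (called under 12 of 22 alternatives) and 1.27 in siControl cells (called under 17 of 22).

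Of the 48 ion carriers, 9 rose and 7 fell on D2 in siKctd10 cells, and 9 rose and 9 fell in siControl cells. The shares called were 33.3% and 37.5%, beside 36.4% and 35.5% of all genes. Slc40a1 rose in both arms. siKctd10 cells had 83.5 ± 7.02 TPM in D2 siKctd10 and 5.5 ± 0.335 TPM in D0 siKctd10 libraries (SD, n = 3 each), a log2 fold change of 3.7. With the control siRNA it had 44.7 ± 4.81 TPM in D2 siControl and 5.98 ± 1.47 TPM in D0 siControl libraries (SD, n = 3 each), a log2 fold change of 2.73. Slc9a9 rose by 1.81 log2 units in siKctd10 and 1.6 in siControl cells, and Slc4a3, the chloride-bicarbonate exchanger AE3, by 2.05 in siKctd10 and 1.84 in siControl cells. Slc20a2, a sodium-phosphate cotransporter, fell by 1.02 log2 units in siKctd10 and 0.75 in siControl cells, and its homologue Slc20a1 fell by 0.48 in siControl cells, while its -0.26 in siKctd10 cells was not called.

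The 23 metal carriers among them had 5 higher and 3 lower on D2 in siKctd10 cells, and 4 higher and 4 lower in siControl cells. In each arm 34.8% were called, beside 36.4% of all genes in siKctd10 and 35.5% in siControl cells. Slc39a3, a zinc importer, rose by 2.15 log2 units in siKctd10 cells (called under 16 of 22 alternatives), and its 1.31 in siControl cells was not called. Its log2 difference between arms, 0.84 (limma adjusted p = 0.82), was not called either. The zinc importers Slc39a7 and Slc39a1 were called in no comparison. Slc39a7 had 320.0 ± 29 TPM in D2 siKctd10 and 260.4 ± 8.16 TPM in D2 siControl libraries, and Slc39a1 had 243.3 ± 6.41 TPM in D2 siKctd10 and 223.0 ± 7.84 TPM in D2 siControl libraries (SD, n = 3 each). Most of the Slc39a7 level, 246.3 TPM in D2 siKctd10 and 206.3 TPM in D2 siControl libraries, lay on a transcript of 414 bases. The importer Slc39a14 fell by 0.45 log2 units in siKctd10 and 0.61 in siControl cells, while the zinc exporter Slc30a1 was not called (-0.19 in siKctd10 and -0.21 in siControl cells). Slc30a4, a vesicular zinc transporter, had 234.9, 35.3 and 31.7 TPM in D2 siKctd10 libraries, against 269.4, 290.1 and 275.3 TPM in D2 siControl libraries. Replicate 1 of D2 siKctd10 stood far above the other siKctd10 libraries of that day, and no comparison called the gene. Slc12a2, the cotransporter NKCC1, spanned 21.9 to 36.9 TPM over all libraries and was called in no comparison. The cotransporter Slc12a4 (KCC1) was called in no comparison either, at 26.1 to 72.7 TPM over all libraries. Of the 4 calcium exchangers limma called 0 in each comparison, with 1 and 1 at an unadjusted p under 0.05 between siRNAs at D2 and D0, and 1 and 1 over days in siKctd10 and siControl cells. Slc8a1, the sodium-calcium exchanger NCX1, had 4.15 ± 2.51 TPM in D2 siKctd10 and 1.66 ± 0.299 TPM in D2 siControl libraries (SD, n = 3 each), and Slc24a3, a potassium-dependent exchanger, spanned 1.05 to 6.6 TPM over all libraries.

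Mitochondrial carriers had 11 of 38 higher and 7 lower on D2 in siKctd10 cells, and 6 higher and 6 lower in siControl cells. That is 47.4% and 31.6% called, beside 36.4% and 35.5% of all genes. Their median was 0.03 in both arms, and -0.1 in siKctd10 and -0.05 in siControl cells after median-ratio scaling. Slc25a5, the ADP-ATP carrier typical of dividing cells, had 526.5, 515.2 and 456.0 TPM in D2 siKctd10 libraries, against 779.9, 858.3 and 702.4 TPM in D0 siKctd10 libraries. With the control siRNA it had 556.2, 511.2 and 571.4 TPM in D2 siControl libraries, against 903.6, 978.7 and 963.8 TPM in D0 siControl libraries. It fell with no overlap, by 0.64 log2 units in siKctd10 and 0.8 in siControl cells (limma adjusted p = 0.00031 and 7.2e-05). Slc25a4, the ADP-ATP carrier of muscle and heart, was not called (log2 -0.36 in siKctd10 and -0.23 in siControl cells), and its ratio to Slc25a5 averaged 0.559 in D2 siKctd10 and 0.466 in D0 siKctd10 libraries, and 0.498 in D2 siControl and 0.337 in D0 siControl libraries. Slc25a3, the phosphate carrier, fell by 0.34 log2 units in siControl cells (called under 18 of 22 alternatives), and its -0.25 in siKctd10 cells was not called.

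Slc25a20, which carries acylcarnitines into the matrix, rose by 0.66 log2 units in siKctd10 cells (called under 15 of 22 alternatives) and 0.84 in siControl cells. The aspartate-glutamate carrier Slc25a13 (citrin) fell by 1.02 log2 units in siKctd10 and 0.95 in siControl cells, while its homologue Slc25a12 (aralar), far more abundant, was not called (0.06 in siKctd10 and 0.15 in siControl cells). Slc25a27, an uncoupling protein homologue, had 13.2 ± 2.74 TPM in D2 siKctd10 and 1.79 ± 1.67 TPM in D0 siKctd10 libraries, and 7.42 ± 3.54 TPM in D2 siControl and 1.27 ± 1.5 TPM in D0 siControl libraries (SD, n = 3 each). It rose by 2.53 log2 units in siKctd10 and 1.98 in siControl cells (called under 16 of 22 alternatives in siControl cells), and the siControl value was 1.49 and not called when only identical introns were used (limma adjusted p = 0.27). Slc25a37, the iron carrier mitoferrin 1, had 53.4, 58.6 and 59.6 TPM in D2 siControl libraries, against 35.5, 70.3 and 68.3 TPM in D0 siControl libraries. Replicate 1 of D0 siControl stood below the others, and the siControl log2 difference between days was 0.04 with it and -0.27 without it (limma adjusted p = 0.046).

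Among the other carriers, 14 of 61 rose and 11 fell on D2 in siKctd10 cells, and 10 rose and 14 fell in siControl cells. Limma thus called 41% and 39.3% of these 61 carriers, beside 36.4% and 35.5% of all genes. Slc29a1, the nucleoside transporter ENT1 and the most abundant of them, had 733.5, 694.5 and 708.6 TPM in D2 siKctd10 libraries, against 264.3, 140.1 and 230.0 TPM in D0 siKctd10 libraries. With the control siRNA it had 320.5, 674.0 and 627.1 TPM in D2 siControl libraries, against 298.8, 229.8 and 165.7 TPM in D0 siControl libraries. It rose by 1.8 log2 units in siKctd10 and 1.19 in siControl cells (called under 18 of 22 alternatives in siControl cells), and D2 siControl replicate 1 stood closest to the D0 libraries.

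Of 8 carriers of mono- and dicarboxylates, 3 rose and 3 fell in siKctd10 cells, and 3 rose and 4 fell in siControl cells. That is 75% and 87.5% of the 8, beside 36.4% and 35.5% of all genes. The lactate carrier Slc16a1 (MCT1) fell by 0.43 log2 units in siKctd10 and 0.62 in siControl cells. Slc16a3 (MCT4) rose by 0.46 log2 units in siKctd10 cells (called under 5 of 22 alternatives) and 0.6 in siControl cells (called under 20 of 22). The ratio of MCT4 to MCT1 averaged 0.0834 in D2 siKctd10 and 0.0442 in D0 siKctd10 libraries, and 0.113 in D2 siControl and 0.0472 in D0 siControl libraries. Their family members Slc16a11 and Slc16a13 fell as well, the first by 1.67 log2 units in siKctd10 and 2.07 in siControl cells, the other by 0.86 in siKctd10 and 1.17 in siControl cells.

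The vitamin carriers Slc19a1 (folate) and Slc19a2 (thiamine) fell by 1.27 and 1.01 log2 units in siKctd10 cells, and by 1.61 and 1.83 in siControl cells. Of 20 nucleotide-sugar carriers, 4 rose and 3 fell in siKctd10 cells, and 2 rose and 3 fell in siControl cells. These were 35% and 25% of the 20, beside 36.4% and 35.5% of all genes. The most abundant, Slc35a4, fell by 0.35 log2 units in siKctd10 and 0.35 in siControl cells. Most of the Slc35a4 level, 181.6 TPM in D2 siKctd10 and 159.7 TPM in D2 siControl libraries, lay on a transcript of 975 bases. Slc35d1 fell by 0.51 log2 units in siKctd10 cells (called under 18 of 22 alternatives) and 1.29 in siControl cells, and Slc22a4, the ergothioneine carrier, by 0.81 in siKctd10 and 1.37 in siControl cells. Slc22a5, which brings carnitine into the cell, was not called (log2 0.2 in siKctd10 and 0.22 in siControl cells). Slc27a3 rose by 1.74 log2 units in siControl cells, its 0.58 in siKctd10 cells was not called, and the interaction, -1.17, did not pass the test (limma adjusted p = 0.21).

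Of 34 listed transporters of solute carrier families whose symbols do not start with Slc and a number, 25 were measured, and 11 rose and 4 fell on D2 in each arm. That is 60% in each arm, beside 36.4% of all genes in siKctd10 and 35.5% in siControl cells. Mpc1, a subunit of the mitochondrial pyruvate carrier, rose by 0.47 log2 units in siKctd10 and 0.4 in siControl cells, and Ctns, the lysosomal cystine exporter, by 1.57 in siKctd10 and 1.38 in siControl cells. Sfxn1, the mitochondrial serine carrier, had log2 fold changes of -1.31 in siKctd10 and -1.57 in siControl cells. Between siRNAs, the organic anion carriers Slco2b1 and Slco3a1 fell at D2, with log2 fold changes of -1.07 and -0.64, and Mfsd2a, a lysophosphatidylcholine carrier, rose at D0, with 0.71. Of 17 listed pumps and partner subunits, 11 were measured. At D2 limma called 0 of the 11 between siRNAs (3 at an unadjusted p under 0.05), and at D0 Ostm1, the partner of a lysosomal chloride exchanger, rose with a log2 fold change of 0.52. Over days 2 rose and 4 fell in siKctd10 cells, and 6 rose and 2 fell in siControl cells. These were 54.5% and 72.7% of the 11, beside 36.4% and 35.5% of all genes. The lists of this paragraph were also chosen with earlier results of these data known, so their shares are given as a description.

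Members with several or overlapping transcripts varied more among libraries of a group. Of 120 such members with a mean of at least 5 TPM, 29 (24.2%) spread more than 3-fold within some group, and of 33 with a single transcript 0 did. Among all genes of that level the shares were 26% and 6.92%. Of the 19 members called between siRNAs, Slc6a2, Slc9a9, Slc41a1 and Slc44a4 have a single transcript that overlaps no other.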

How the data were processed

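Transcript abundances in the deposited files came from StringTie run on known mm10 transcripts only (63759 in each file), version 1.3.3b per the file headers; version 1.1.3 stands in the submitters' processing notes, beside HISAT, SAMtools and DESeq2. The deposited values, held as other text attributes, are TPM and coverage, with TPM summing to 1000000 per library by the authors. They are estimates, so no count test was the main one.

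Transcripts were matched to GENCODE M21 genes (GRCm38, the same build) by identical introns (42608) or exon overlap of at least 50% (13473), and TPM was summed per gene; unmatched transcripts held 3.82 to 4.63% of TPM. Genes with at least 1 TPM in at least 3 libraries entered limma 3.58.1 (R 4.3.3; trend, robust) as log2(TPM + 1), with 4 group means, two-sided tests and Benjamini-Hochberg adjustment over 13076 genes (0.05). This scale understates the change of low genes. The fit was tested on simulated data. Depth, estimated from coverage at 202 bases a read pair, was 12.51 to 18.08 in units of 1000000 read pairs, and no counting interval is given.

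Members were named if among the 8 largest non-overlapping rises or falls called in a comparison with at least 5 TPM, if called between siRNAs or in the interaction, if among the 3 most abundant of a class, or if on a fixed list, of which 1 gene (Slc8a3) is no member. Some named members are not reported here. Slc7a7 is named for its motif. Members and lists were chosen with earlier results of these data known. Each fit was repeated under 22 alternatives (pseudocount 0.1, a mean of at least 5 TPM, no filter, median-ratio or quantile scaling, voom on estimated read pairs, identical introns only, the groups compared only, a replicate block, and each library left out); leaving out both siKctd10 libraries numbered 3 was chosen after seeing the data.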

Additional observations from a re-analysis of the deposited data

Results flagged for a closer look

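For Slc44a4, a test of the difference between days in the siKctd10 effect passed the threshold. The gene entered the table only because its 3 D2 siControl libraries reached 1 TPM, the same values the test rests on. The log2 difference between its D2 effect (-1.88) and its D0 effect (-0.03) was -1.85 in limma's interaction test (adjusted p = 0.022). It had 0.172, 0.75 and 0.302 TPM in D2 siKctd10 libraries, against 5.84, 3.97 and 2.92 TPM in D2 siControl libraries. It was listed at 0 in the 3 D0 siKctd10 libraries, against 0, 0 and 0.0561 TPM in the D0 siControl libraries. The call was lost under 13 of 20 alternatives, with adjusted p up to 0.35.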

How the results depend on the processing

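With only the groups of the comparison in the fit, 1 member was called between siRNAs at D0 and 5 at D2, against 6 and 15. The 1 interaction call became 0 with a pseudocount of 0.1, a mean TPM of at least 5, voom on estimated read pairs, a replicate block, and without both siKctd10 libraries numbered 3. Leaving out 1 library gave 1 to 7 calls at D0, 8 to 16 at D2, 69 to 78 over days in siKctd10, 62 to 79 over days in siControl, and 0 to 1 in the interaction (0 without D0 siControl replicate 1, 2 or 3, D0 siKctd10 replicate 1 or 3, D2 siControl replicate 2, or D2 siKctd10 replicate 1 or 3; without D0 siKctd10 replicate 2 the 1 call was another member, not Slc44a4). Values that an alternative called with the other sign were Slc25a37 over days in siControl, which ranged from -0.27 to 0.21 with 1 library left out, and Slc6a8 at D0, which ranged from -0.5 to 0.64 and was 0.64 without both libraries numbered 3. The causes were not tested.

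The main fit assumed no pairing by replicate number, and whether the numbers pair the samples is not known. Same-numbered D2 siKctd10 and D0 siKctd10 libraries deviated together with correlations of 0.091, 0.046 and 0.202. Differently numbered libraries of these groups had correlations from -0.142 to 0.066. With the replicate block, 10 members were called at D2, 6 at D0, 79 over days in siKctd10, 77 over days in siControl and 0 in the interaction.

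The files give estimates without counts, so what depth limits for low members such as Slc2a4 is unknown.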
